A study of Mus musculus with 12 samples.

Results

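The respiratory chain of the mitochondrion is built largely from subunits encoded in the nucleus, and 55 such genes could be followed in the antrum of the stomach while tumors grew in CEA424-SV40 TAg transgenic mice. They were taken by name: every gene whose symbol begins with Ndufa, Ndufb, Ndufc, Ndufs, Ndufv, Uqcr, Atp5, Cox4, Cox5, Cox6, Cox7 or Cox8, together with Sdha, Sdhb, Sdhc, Sdhd and Cycs. The array's probe table carries no gene names, so a name was read from the NCBI gene number or the RIKEN clone inside a probe ID. This named 8702 genes, and 35302 probes stayed unnamed. The 55 genes had 66 probes, and each gene was represented by its brightest probe. A RefSeq gene table of assembly GRCm38.p6 holds 116 symbols that meet the same rule (97 of them protein coding), so the set is a sample of the family. It held 20 accessory and 1 core subunit of complex I (NADH dehydrogenase), 6 complex I assembly factors that share the Ndufa prefix, 3 subunits of complex II (succinate dehydrogenase), 5 of complex III (cytochrome bc1), cytochrome c, 10 of complex IV (cytochrome c oxidase) and 9 of the ATP synthase. Among the 20, Ndufs5-ps is annotated as a pseudogene.

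Complexes I and II pass electrons from NADH and succinate to ubiquinone, complex III passes them on to cytochrome c, and complex IV hands them to oxygen. Complexes I, III and IV pump protons across the inner membrane, and the ATP synthase uses the returning protons to make ATP. In complex I the redox centers lie in some of the core subunits, and accessory subunits surround and stabilize the core. Some subunits of complex IV exist as tissue-specific isoforms. In the stomach the acid-secreting parietal cells are especially rich in mitochondria.

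The 12 arrays were 1-color Illumina Mouse-6 bead arrays, 1 for each mouse, in 4 groups of 3. Controls were wild type C57Bl/6 mice with normal antrum. Their labelled age is 2 to 6 months, although the study describes normal littermates and a figure caption gives them as day 90. Their age relative to the tumors is therefore uncertain. By the labels every control was older than the day 30 mice, so age and genotype cannot be told apart in that comparison. The transgenic mice carried CEA424-SV40 T antigen on the same C57Bl/6 background and were 30, 60 or 90 days old. In these animals a fragment of the human CEA gene promoter drives the SV40 T antigens, and the tissue taken held tumor mixed with normal antrum. Values below are normalized signals (quantile normalized, linear scale) in the order of mice 1, 2 and 3, and a signal of 100 or below was treated as background. Log2 fold changes are given ± limma's standard error, with 3 mice in each group. A probe for the SV40 large T antigen gave 67.5 to 72.3 in controls, 80.1 to 126 at day 30, 106 to 159 at day 60 and 143 to 175 at day 90. The first principal component (47.0% of the variance) set the 3 day 90 arrays apart from the other 9, and control mouse 3 stood alone on the second (12.5%). Of the 55 genes, 53 passed the filter of a signal above 100 on at least 3 arrays and were tested. Sdha, the flavoprotein of complex II, and Ndufaf6, an assembly factor, did not. Their signals ran from 60.5 to 91.3 and from 66.1 to 103.

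Promoter sequence was at hand for 46 of the 55 genes in the RefSeq promoter table (GRCm38.p6). To show how these genes begin, 3 stretches of 250 bases upstream of the annotated start are printed, 5′ to 3′ on the strand of the gene. They show the gene with the largest fall at day 90 (Cox7a1, the heart and skeletal muscle isoform of a complex IV subunit), a subunit of the same complex that fell less (Cox6a1, the widely expressed isoform), and the gene with the largest rise (Atp5md, a small membrane subunit of the ATP synthase). Capitals mark matches, on either strand, to the motifs listed after them.
Cox7a1, chr7:30183921-30184170, plus strand: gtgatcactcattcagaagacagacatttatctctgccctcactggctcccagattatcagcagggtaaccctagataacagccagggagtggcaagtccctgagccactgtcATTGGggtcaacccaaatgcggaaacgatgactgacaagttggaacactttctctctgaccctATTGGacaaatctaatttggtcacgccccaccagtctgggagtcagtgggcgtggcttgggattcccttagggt
Cox6a1, chr5:115348959-115349208, minus strand: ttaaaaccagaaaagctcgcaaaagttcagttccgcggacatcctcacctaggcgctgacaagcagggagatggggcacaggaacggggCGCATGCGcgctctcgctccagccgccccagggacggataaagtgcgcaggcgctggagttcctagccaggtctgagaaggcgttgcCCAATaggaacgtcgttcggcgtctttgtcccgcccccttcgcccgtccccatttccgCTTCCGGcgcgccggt
Atp5md, chr19:47090648-47090897, minus strand: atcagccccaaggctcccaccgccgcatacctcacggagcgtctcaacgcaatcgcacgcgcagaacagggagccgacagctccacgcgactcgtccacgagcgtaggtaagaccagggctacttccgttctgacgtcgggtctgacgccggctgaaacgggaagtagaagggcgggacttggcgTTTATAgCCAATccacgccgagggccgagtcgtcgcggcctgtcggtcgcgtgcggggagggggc

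The letters searched, on both strands, were CGCATGCG for the core of the NRF1 motif and CCGGAAG for ETS factors such as GABPA. Further letters were AAGATGGC for YY1, the pentamer CCAAT for the box bound by NF-Y, the hexamer TATAAA for the core promoter element bound by TBP and the hexamer CAGCTG for an E-box of myogenic factors. In the printed stretches no match overlapped another. The Cox7a1 stretch held the NF-Y letters in 2 places and none of the other motifs. The Cox6a1 stretch held the NRF1, ETS and NF-Y letters, and the Atp5md stretch the TBP letters next to the NF-Y letters. Over the 46 promoters the NRF1 letters were found in 7 (15.2%, against 1.58% of 27025 promoters of the same length) and the ETS letters in 9 (19.6% against 7.05%). The NF-Y letters were found in 23 of the 46, against 34.5% of all promoters, and the TBP letters in 5 (10.9% against 13.0%). The YY1 and E-box letters were found in none (1.59% and 12.8% of all promoters). The median GC content of these stretches was 59.0% for the 46 genes and 52.0% for all promoters. The NRF1 letters stood upstream of Ndufaf4, Atp5k, Cox6a1, Cycs, Atp5l, Atp5g2 and Ndufa11. As given below, Cox6a1, Atp5g2 and Ndufa11 were lower at day 90, and the remaining 4 did not pass the test against control.

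In day 90 tumors 18 of these genes were lower than in control antrum, by modest amounts except for Cox7a1. Of the 53 genes tested, those 18 were lower and 2 were higher (limma, adjusted p below 0.05 over all 22067 probes), and 33 did not pass. The background was 9.17% of all probes lower and 10.4% higher; 34.0% of the 53 genes were lower and 3.77% higher. Log2 fold changes were below 0 for 39 genes, with a median of -0.29 against -0.04 over all probes and -0.04 over named genes. Every day 90 array lay below every control array for 22 genes (41.5%, against 21.3% of named genes) and above for 2 (against 20.9%). The other 17 lower genes fell by between 1.38-fold (Ndufb3) and 2.08-fold (Ndufa10), whereas Cox7a1 fell 9.15-fold.

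The split followed the brightness of the probe. Among the 39 genes whose mean signal exceeded 1000, 17 were lower and none higher, and the median was -0.46. Bright genes were called more often on the whole array too: 21.2% of the 669 named genes above 1000 were lower and 14.2% higher, with a median of -0.06. Among the 14 genes at or below 1000, 1 was lower (Ndufaf8) and both risers, Atp5md and Ndufb4, were found, with a median of 0.05. The background correction used understates changes in dim probes, and Ndufa3 and Ndufab1 of this group lay near background and could show no fall. Signal also depends on the probe itself, so it is no measure of how much of each RNA was present. As the RNA came from whole tissue, fewer cells of a type and less RNA per cell cannot be told apart in any of these values.

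**Figure D1:**
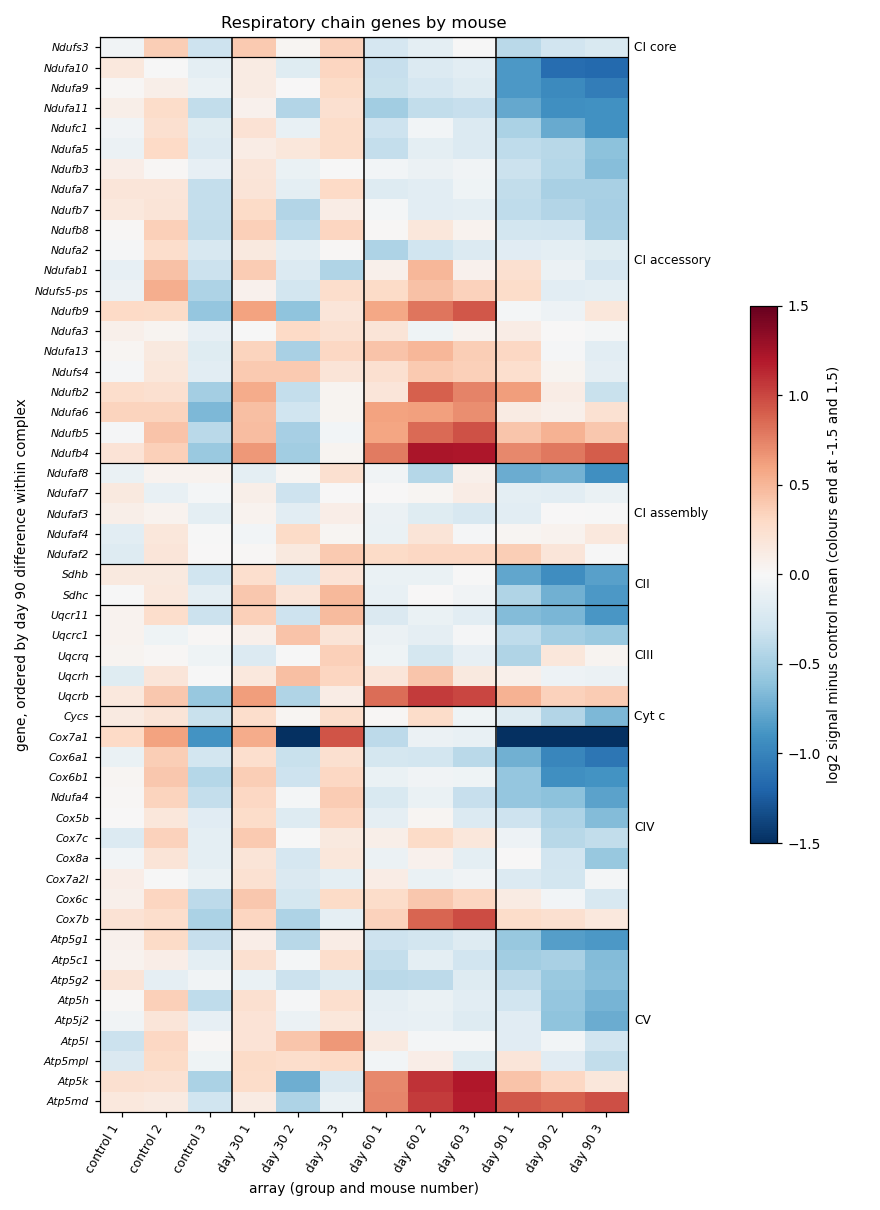
Log2 signal of each of the 53 tested genes (rows, by complex, ordered by the day 90 difference) in each of the 12 mice (columns), minus the gene's control mean. Blue is lower and red higher; colors end at -1.5 and 1.5, beyond which Cox7a1 lies in all 3 day 90 mice. CI to CV are complexes I to IV and the ATP synthase.

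Complex I showed more falls than rises. Of its 20 accessory subunits 5 were lower (Ndufa10, Ndufa9, Ndufa11, Ndufc1 and Ndufb3), 1 was higher (Ndufb4) and 14 did not pass, with a median of -0.10. Ndufa10, an accessory subunit of the membrane arm, gave 2236, 2002 and 1808 in controls, 2179, 1764 and 2509 at day 30, 1584, 1745 and 1801 at day 60 and 1102, 908 and 894 at day 90 (log2 fold change -1.06 ± 0.14, limma adjusted p = 0.0011). The day 90 mice lay under all the other mice. Ndufa9, which lies at the junction of the membrane and matrix arms, read 2558, 2699 and 2358 in controls, 2761, 2552 and 3096 at day 30, 2018, 2125 and 2216 at day 60 and 1392, 1311 and 1239 at day 90 (log2 fold change -0.95 ± 0.12, limma adjusted p = 0.000829). Its groups were tight, and no day 90 mouse came near another group. Ndufa11, a membrane-arm subunit, was 1607, 1829 and 1165 in controls and 889, 795 and 806 at day 90 (log2 fold change -0.86 ± 0.17, limma adjusted p = 0.00836). At day 60 it read 1048, 1168 and 1188, overlapping the controls, and at day 30 1577, 1115 and 1773. Control mouse 3 and day 30 mouse 2 were the lowest of their groups.

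Ndufb3, another subunit of the membrane arm, had the smallest passing fall. Its controls read 1218, 1149.6 and 1039, its day 30 mice 1284, 1056 and 1127, its day 60 mice 1104, 1069.6 and 1091 and its day 90 mice 909, 842 and 729 (log2 fold change -0.46 ± 0.13, limma adjusted p = 0.0396). The day 90 mice lay below all others while the other groups overlapped, and the call was lost when control mouse 1 or 2 or day 90 mouse 2 or 3 was left out. It was also lost with cyclic loess, the deposited normalized values, the methods' t-test and the replicate block. In all it held in 10 of 18 alternative treatments of the data. Ndufc1, a small membrane subunit, was lower by 1.64-fold (adjusted p = 0.0147). Ndufb4 moved the other way. This membrane-arm subunit read 374, 417 and 220.3 in controls, 510.4, 227 and 335 at day 30, 559.5, 759 and 755 at day 60 and 536, 564 and 609 at day 90 (log2 fold change 0.81 ± 0.22, limma adjusted p = 0.0331). Every day 90 mouse exceeded every control, but the call was lost when any one of the 3 day 90 mice was left out. The log2 fold change ran from 0.53 to 1.12 over all 18 alternatives.

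Ndufs3, the 1 core subunit measured, did not pass the test on its brightest probe, with 2045, 2761 and 1710.4 in controls, 2793, 2181 and 2707 at day 30, 1791, 1929.8 and 2123 at day 60 and 1603, 1739 and 1822 at day 90 (log2 fold change -0.31 ± 0.18, limma adjusted p = 0.269). The groups overlapped, since day 90 mice 2 and 3 stood above control mouse 3. A dimmer second probe of Ndufs3 did pass, at -0.73 ± 0.15 (adjusted p = 0.0113), so the gene has no settled call. Of the 5 assembly factors tested, Ndufaf8 alone passed. It read 291, 324 and 326 in controls, 284, 319 and 369 at day 30, 301, 234 and 329.6 at day 60 and 187, 192 and 166 at day 90 (log2 fold change -0.79 ± 0.12, limma adjusted p = 0.00245). Its day 90 mice were the lowest 3 of the 12. The other 4, Ndufaf2, Ndufaf3, Ndufaf4 and Ndufaf7, lay between -0.14 and 0.18.

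Complex II was lower in both subunits that could be tested, with a median of -0.76. Sdhb, the iron-sulfur subunit, gave 2144, 2148 and 1582 in controls, 2316, 1644 and 2242 at day 30, 1805, 1808 and 1926 at day 60 and 1127, 1016 and 1101 at day 90 (log2 fold change -0.84 ± 0.15, limma adjusted p = 0.00473). The highest day 90 mouse lay below the lowest mouse of any other group. Sdhc, a membrane anchor of the complex, fell 1.60-fold (adjusted p = 0.0127), from 2742 to 3382 in controls to 1669 to 2227.

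In complex III, 2 of 5 subunits were lower and 3 did not pass. Uqcrc1, a core protein of the complex on the matrix side, read 2668, 2465 and 2603 in controls, 2727, 3454 and 2935 at day 30, 2435, 2353 and 2552 at day 60 and 1979, 1807 and 1749 at day 90 (log2 fold change -0.48 ± 0.12, limma adjusted p = 0.0188). The day 90 mice were the lowest 3, and Uqcrc1 differed from most others in that control mouse 3 and day 30 mouse 2 were not low. The call held in 15 of 18 alternatives. Uqcr11, a small subunit, fell 1.67-fold (adjusted p = 0.0138). The remaining subunits Uqcrq, Uqcrh and Uqcrb stood at -0.08, -0.03 and 0.41.

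Cycs, the somatic cytochrome c, did not pass against control. It read 2262, 2362 and 1632 in controls, 2481, 2096 and 2480.1 at day 30, 2089, 2499.9 and 1971 at day 60 and 1799, 1513 and 1294 at day 90 (log2 fold change -0.44 ± 0.18, limma adjusted p = 0.131). Day 90 mouse 1 stood above control mouse 3, and without that control mouse the difference was -0.60 ± 0.16 (adjusted p = 0.0275).

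Complex IV held 5 lower genes of 10 and none higher, with a median of -0.38. Cox6a1 read 10112, 14014 and 8984 in controls, 12943, 8572 and 12814 at day 30, 9039, 8984 and 8163 at day 60 and 6591, 5493 and 5118 at day 90 (log2 fold change -0.93 ± 0.18, limma adjusted p = 0.00798), and a second probe gave -0.91. Cox6b1, which faces the intermembrane space, read 6025, 7821 and 4387 in controls, 7660.1, 4753 and 7362 at day 30, 5529.9, 5714 and 5654 at day 60 and 3951, 3116 and 3184 at day 90 (log2 fold change -0.80 ± 0.21, limma adjusted p = 0.0265), and a second probe gave -0.94. In both genes the day 90 mice lay below all 9 other mice, and the 2 probes differed by less than their errors. Ndufa4, named for complex I but a subunit of complex IV, was 6111, 7628 and 4699.6 in controls, 7473, 5894 and 7878 at day 30, 5133, 5631 and 4753 at day 60 and 4026, 3951 and 3465 at day 90 (log2 fold change -0.66 ± 0.18, limma adjusted p = 0.0309). Cox5b, a matrix-side subunit that binds zinc, gave 8208, 9177 and 7262 in controls, 9936, 7151 and 10260.2 at day 30, 7473, 8312 and 7122 at day 60 and 6570.5, 5920.1 and 5209.8 at day 90 (log2 fold change -0.48 ± 0.14, limma adjusted p = 0.0451). Here too the day 90 mice were below the other 9 in both genes, although the second probe of Cox5b did not pass (adjusted p = 0.134). Cox6b1, Ndufa4 and Cox5b lost their calls without control mouse 1 or 2 or without day 90 mouse 2 or 3. They also lost them under the methods' t-test, and Cox5b further with an offset of 16 and with the replicate block. Cox7c, Cox8a, Cox7a2l, Cox6c and Cox7b, between -0.29 and 0.23, did not pass.

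In the ATP synthase 3 of 9 subunits were lower, 1 was higher and 5 did not pass, with a median of -0.51. Atp5c1, the gamma subunit of the central stalk, read 5765, 5946 and 5014 in controls, 6591, 5467 and 6649 at day 30, 4357, 5025 and 4563 at day 60 and 3885, 3972 and 3532 at day 90 (log2 fold change -0.55 ± 0.12, limma adjusted p = 0.0145). Its levels at day 60 already lay near or under the lowest control, and the call at day 90 held in 15 of 18 alternatives. Atp5g2, which with Atp5g1 encodes the identical mature c subunit of the membrane ring, read 1396, 1115 and 1179 in controls, 1142, 978 and 1075 at day 30, 925, 929.7 and 1073 at day 60 and 932, 834 and 785 at day 90 (log2 fold change -0.53 ± 0.14, limma adjusted p = 0.0245). Its day 90 mice lay under the controls but overlapped the day 60 mice, and the call held in 13 of 18 alternatives. Atp5g1 fell 1.68-fold (adjusted p = 0.0169). Atp5md rose. It read 309, 305 and 226 in controls, 303, 201 and 258 at day 30, 462, 573 and 629 at day 60 and 527, 516 and 542 at day 90 (log2 fold change 0.93 ± 0.15, limma adjusted p = 0.00287). Every day 60 and day 90 mouse exceeded all 6 of the control and day 30 mice. The call at day 90 held in 18 of 18 alternative treatments of the data. A second Atp5md probe stayed at background.

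**Figure D2:**
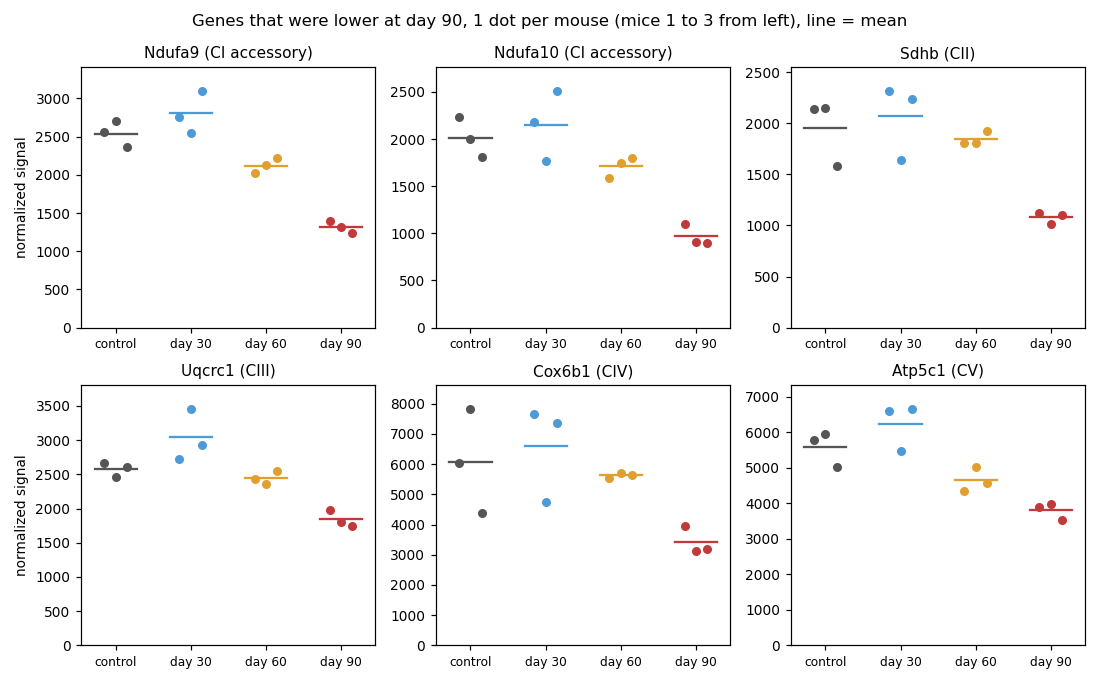
Normalized signal (linear axis from 0) of 6 genes that were lower at day 90, from complexes I, I, II, III, IV and the ATP synthase. Each dot is 1 mouse and each line a group mean; in all 6 panels the 3 day 90 mice lie below every control mouse.

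Cox7a1 (NCBI gene 12865) had the largest change of the 53 genes. Its signals were 1971, 2432 and 865 in controls, 2371, 497 and 3079.7 at day 30, 1229, 1508 and 1485 at day 60 and 226, 150.2 and 159 at day 90. All 3 day 90 mice lay far below the others, and within the controls and the day 30 mice 1 animal of each was well under its companions. The fall against control was 9.15-fold (log2 fold change -3.19 ± 0.35, limma adjusted p = 0.000384), and against day 60 it was 7.98-fold (log2 fold change -3.00 ± 0.16, limma adjusted p = 2.70e-06). Both calls held in 18 of 18 alternatives, with log2 fold changes from -3.64 to -2.89 and from -3.28 to -2.85. Its common isoform Cox7a2 had no named probe, so the balance of the isoforms was not analysed here.

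Other genes were low in the same mice as Cox7a1. Atp4a, the catalytic subunit of the proton pump of parietal cells, read 11468, 17193 and 3931 in controls, 16709, 3527 and 17334 at day 30, 10148, 11240.3 and 12139.8 at day 60 and 792, 431 and 637 at day 90 (log2 fold change at day 90 -3.93 ± 0.47). Control mouse 3 and day 30 mouse 2 were the low animals in both genes, and all day 90 mice were lower still. Of the 13 parietal and chief cell markers in the list, 6 were named on the array and 5 tested. All of the 4 that passed (Atp4a, Clic6, Kcnq1 and Aqp4) were lower at day 90. The other tested marker, Ckb, did not pass, with 9013, 10511 and 7437 in controls and 7105, 7151 and 5765 at day 90. The signal summed over all 6 ran from 16089.7 to 39696 in controls and 12301 to 39651 at day 30. It was 23505 to 29585 at day 60 and 8098 to 9583 at day 90, where most of it came from Ckb. For smooth muscle 5 of 12 markers were measured and all 5 were lower at day 90, with summed signals of 6319 to 7575 in controls and 1992 to 2732 at day 90. Day 30 mouse 2 had the highest smooth muscle sum, at 8441.

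Markers of striated muscle, where Cox7a1 is best known, were near background in most mice. Of 18 markers 6 were named and 2 passed the filter. The sums over all 6 were 453 to 539 in controls, 443 to 654 at day 30, 448 to 455 at day 60 and 431 to 483 at day 90. Day 30 mouse 2, low in Cox7a1, had the highest sum, with Myh7 at 190 and Actn3 at 159, and every day 30 mouse exceeded every control for Myh7. Of the 6 markers, Myh1, Myh6, Ttn and Actn3 did not pass the filter. The 2 fat markers that were named, Car3 and Fabp4, did not pass the test against control at day 90. Their log2 fold changes were -1.52 and -0.16, in no fixed order. Against day 60, 1 of the 2 was lower, at -1.70. Their sums were 293 to 1109 in controls, 383 to 725 at day 30, 606 to 742 at day 60 and 192 to 603 at day 90. The 3 measured neuroendocrine markers, Scg2, Pcsk2 and Syp, were all higher at day 90, with sums of 450 to 666 in controls and 13067 to 18194 in the tumors. Whether the makeup of the tissue has a part in the values of Cox7a1 or of the other genes was not tested.

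**Figure D3:**
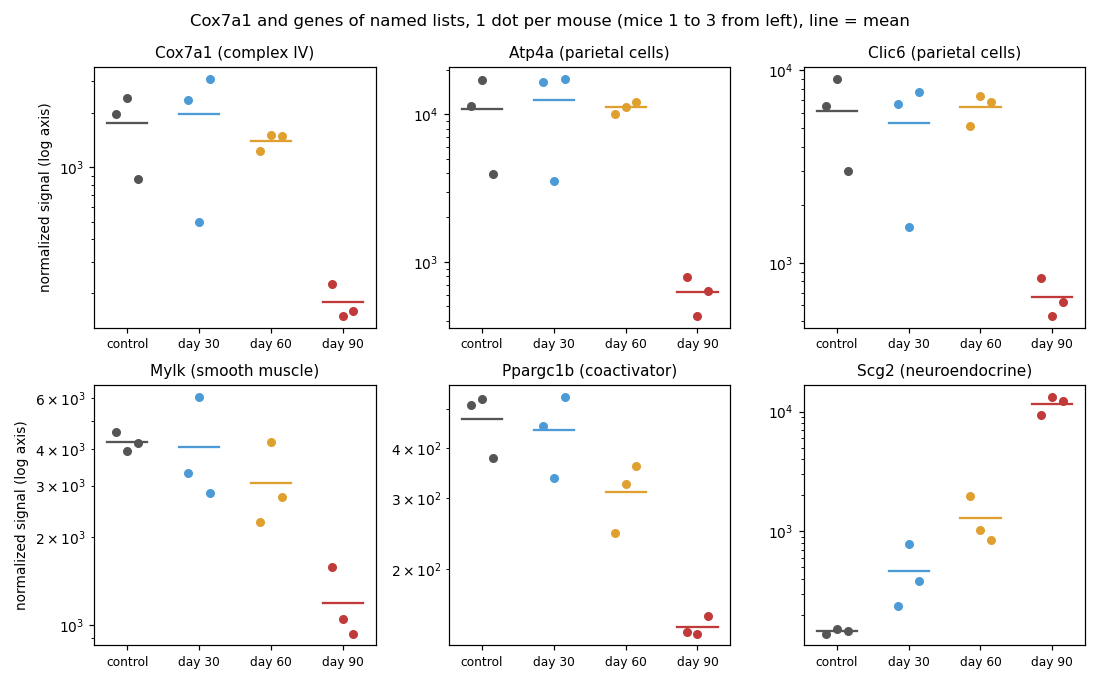
Normalized signal (log axes) of Cox7a1 beside 2 parietal cell genes, a smooth muscle gene, a coactivator of mitochondrial genes and a neuroendocrine gene. Each dot is 1 mouse, mice 1 to 3 from left to right, and each line a group mean; control mouse 3 and day 30 mouse 2 are low in Cox7a1, Atp4a and Clic6 alike.

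The comparison of day 90 with day 60 asks what changed over the last month of tumor growth, between transgenic animals of known age. Neither age had non-transgenic arrays of its own, so aging and tumor growth cannot be told apart in it. Here 26 of 53 genes were lower (49.1%), none was higher, and the background was 9.83% of probes lower and 9.94% higher. Among named genes with a mean signal above 1000, it was 24.5% lower and 13.9% higher, beside 21 of the 39 genes in that range that were lower. At an unadjusted p below 0.05, 35 of the 53 genes changed in either direction, beside 6561 of all 22067 probes. The median was -0.38, against -0.04 over all probes, and every day 90 mouse lay below every day 60 mouse for 36 genes (67.9%, against 21.2% of named genes). Of the 18 genes lower against control 15 were also lower here. These comparisons share the day 90 arrays, so the overlap is no independent result. Cox7a1 led, followed by Ndufa10 (log2 fold change -0.83 ± 0.12, adjusted p = 0.000799), Sdhb (-0.77 ± 0.10, 0.000495), Cox6b1 (-0.73 ± 0.12, 0.00161) and Ndufa9 (-0.69 ± 0.11, 0.00108). All 5 passed in 18 of 18 alternatives. By complex, 9 of 20 accessory subunits of complex I were lower, 2 of 2 of complex II, 3 of 5 of complex III, 7 of 10 of complex IV, 3 of 9 of the ATP synthase, and Cycs. In 13 of the 26 the call was kept whichever mouse was left out. The number lower was 13 without day 90 mouse 3, 16 without day 60 mouse 2 and 15 without day 60 mouse 3.

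**Figure D4:**
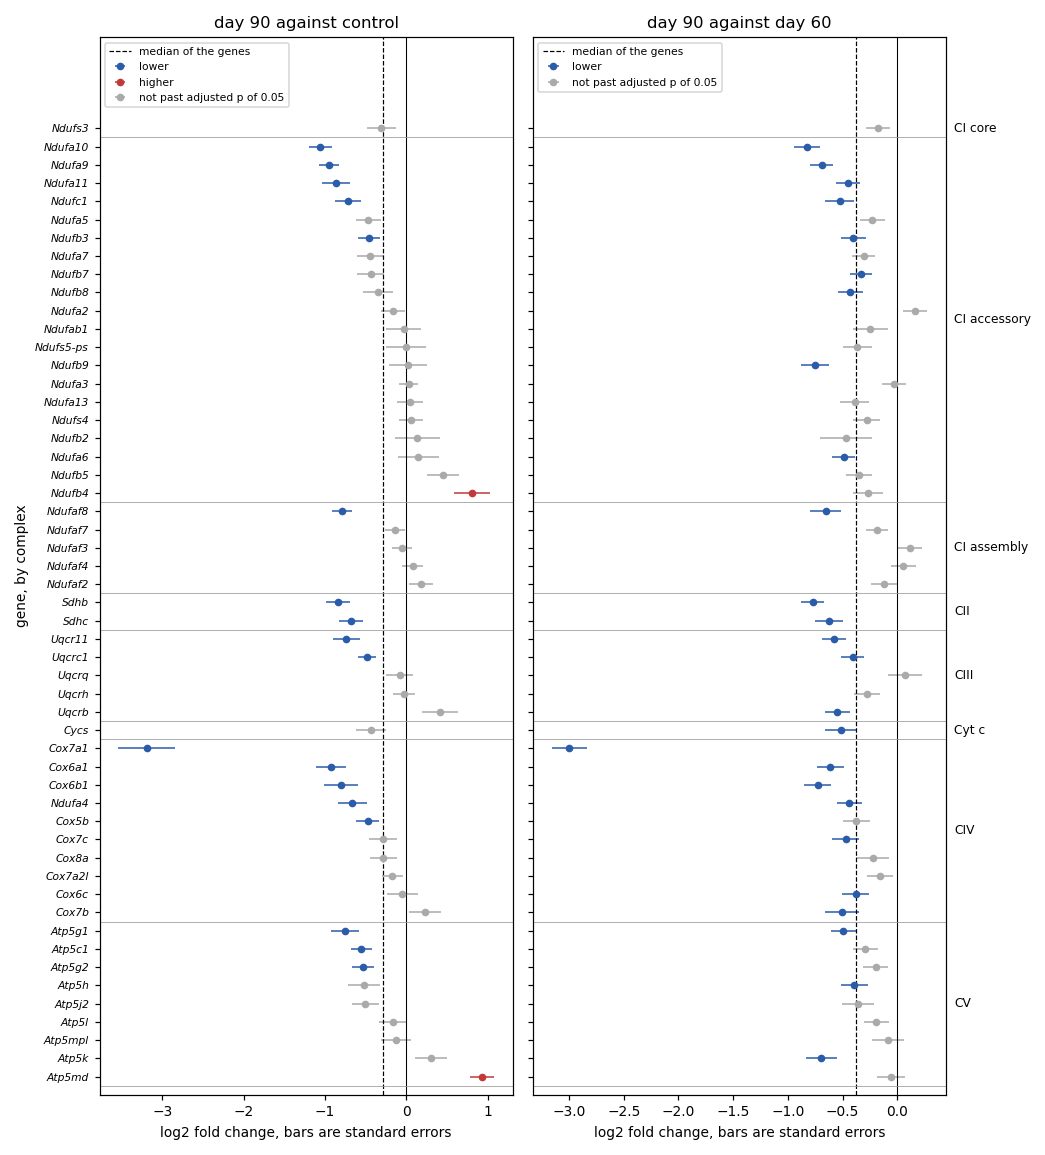
Log2 fold change with its standard error for each of the 53 genes, at left day 90 against control and at right day 90 against day 60. Blue marks genes lower and red genes higher at an adjusted p below 0.05; the dashed line is the median of the genes, -0.29 at left and -0.38 at right, and Cox7a1 lies apart at -3.19 and -3.00.

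At day 60 the picture was different, with 1 gene higher and none lower than in control (background 0.847% of probes higher and 0.00906% lower). That gene was Atp5md, at 0.99 ± 0.17 on the log2 scale (adjusted p = 0.0402). The call was lost when any day 60 mouse, or control mouse 1 or 2, was left out. Every day 60 mouse lay above every control for 11 of 53 genes (20.8%, against 13.5% of named genes). The median of the 53 genes was -0.06, and 15 had an unadjusted p below 0.05 in either direction, beside 3198 of all 22067 probes. Atp5md was also the 1 gene called at day 60 against day 30 (log2 fold change 1.13 ± 0.17, adjusted p = 0.038, background 0.353% of probes higher and 0.00453% lower). This call held in 8 of 18 alternatives, with log2 fold changes from 0.98 to 1.42. It was lost when any day 60 mouse or day 30 mouse 3 was left out, and under 6 other settings.

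A group of genes stood high at day 60 without passing the test. Their values were looked at because they stood out, so what follows is a description. Log2 fold changes above 0.5 against control were found for 9 of 53 genes (17.0%) and 298 of 5537 named genes (5.38%). Next to Atp5md these were Ndufb4, Atp5k, Uqcrb, Ndufb5, Ndufb9, Cox7b, Ndufa6 and Ndufb2. Atp5k, subunit e of the ATP synthase, read 457, 452 and 278 in controls, 465, 231 and 331 at day 30, 638, 816 and 883 at day 60 and 519.6, 479.6 and 435 at day 90 (day 60 log2 fold change 1.00 ± 0.21, adjusted p = 0.0766). A second probe of Atp5k gave 0.53 at day 60 (adjusted p = 0.103). Uqcrb, a small subunit of complex III, read 1621, 1925 and 982 in controls, 2236, 1062 and 1563 at day 30, 2603, 2999 and 2906 at day 60 and 2079, 1838 and 1899 at day 90 (0.96 ± 0.23, adjusted p = 0.101). In Ndufb9, of the complex I membrane arm, the values were 967, 959 and 525 in controls, 1195, 518 and 892 at day 30, 1179.9, 1376 and 1499 at day 60 and 772, 746 and 883 at day 90 (0.77 ± 0.23, adjusted p = 0.172).

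In 8 of the 9 genes every day 60 mouse lay above every control, the exception being Ndufb2. The cut was made on these same values, so such a separation was favored. In all 9 control mouse 3 was the lowest control and day 30 mouse 2 the lowest day 30 animal. Leaving out control mouse 3 lowered the difference of Uqcrb to 0.68 ± 0.14 but took it past the threshold (adjusted p = 0.0493). Leaving out day 30 mouse 1, the highest of its group in each of these genes, took Atp5k, Ndufb4, Ndufb5 and Uqcrb past it at day 60 against day 30 (adjusted p from 0.0216 to 0.0364). Without day 30 mouse 2 instead, only Atp5k of them passed (0.98 ± 0.19, adjusted p = 0.0431). From day 60 to day 90 5 of the 9 fell: Ndufb9 (-0.75), Atp5k (-0.69), Uqcrb (-0.55), Cox7b (-0.51) and Ndufa6 (-0.49). The 9 were chosen for high day 60 values, so a later fall was favored and their count is no independent result. In that comparison 26 of all 53 genes and 9.83% of all probes were lower. Atp5md stayed where it was at day 60 (-0.06 ± 0.13, adjusted p = 0.826).

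**Figure D5:**
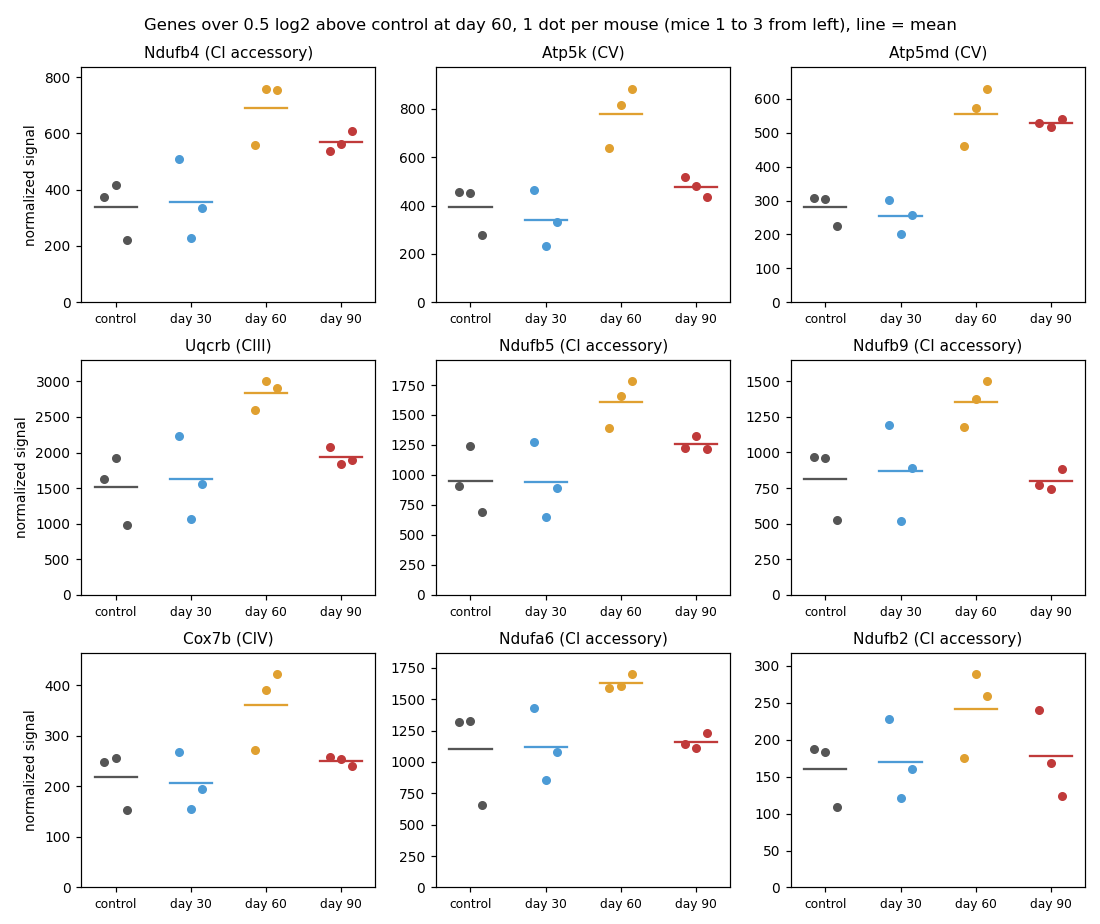
Normalized signal (linear axes from 0) of the 9 genes whose day 60 mean lay more than 0.5 log2 above control. Each dot is 1 mouse, mice 1 to 3 from left to right, and each line a group mean; of the 9, Atp5md alone passed the test against control.

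At day 30 no gene of the 53 passed against control by limma, nor did any probe on the array (0.0% called), and 2 of the 53 had an unadjusted p below 0.05 (887 of all probes). The methods' t-test gave 2 at its unadjusted threshold of 0.05 and 0 after Benjamini-Hochberg adjustment. It was run without the study's filters on fold change and on the difference of means. The median was 0.08, and 41 of 53 genes lay above 0. By their labels the controls were older than these mice, so age and genotype cannot be told apart here. The group means were nonetheless highest at day 30 for 30 genes, at day 60 for 17 and in controls for 6, and at day 90 for none. They were lowest at day 90 for 35.

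Mice within a group differed about as much as some of these groups did. Control mouse 3 had the lowest value of the controls for 43 of 53 genes (46.8% of named genes), and day 30 mouse 2 the lowest of its group for 42 (40.1%). Relative to the control mean, the median of the 53 genes was 0.04, 0.23 and -0.24 in the control mice, 0.25, -0.19 and 0.23 at day 30, -0.06, -0.04 and -0.05 at day 60, and -0.19, -0.29 and -0.37 at day 90 (log2 differences). Control mouse 3 thus lay within the range of the day 90 mice. Without it 24 genes were lower at day 90, and without day 90 mouse 2 or 3 the number was 8 or 7. Without control mouse 1 it was 11. Of the 18, 7 genes were lower whichever mouse was left out: Cox7a1, Ndufa10, Ndufa9, Ndufa11, Cox6a1, Sdhb and Ndufaf8. Without day 30 mouse 2, Cox7a1 was also lower at day 60 than at day 30 (-0.95 ± 0.16, adjusted p = 0.0334), against -0.13 ± 0.53 with all mice.

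Other mitochondrial genes gave a mixed account at day 90, beside a background of 9.17% of probes lower and 10.4% higher. The lists were chosen with results of these arrays already known. Of 33 tested proteins of the mitochondrial ribosome 9 were lower (27.3%) and none higher (median -0.28), led by Mrpl42 at -1.03 ± 0.17. Among 15 assembly factors of the chain outside the 55 genes, 5 were lower (33.3%) and 2 higher (13.3%). They included Cox19, a factor for complex IV (-0.93 ± 0.14), and Ttc19, a factor for complex III (0.66 ± 0.13). In the citric acid cycle and pyruvate dehydrogenase 4 of 8 were lower and 1 higher. Ogdh, of the 2-oxoglutarate dehydrogenase complex, read 1423, 1467 and 1292 in controls and 705, 593 and 648 at day 90 (log2 fold change -1.11 ± 0.12, limma adjusted p = 0.000454), with no overlap. Mdh2, malate dehydrogenase, rose (0.61 ± 0.12). Of 11 carriers, porins and import proteins of the mitochondrion 2 were higher (18.2%) and 1 lower (9.09%), near the background. In fatty acid oxidation 2 of 4 were lower, Etfa (-0.99 ± 0.19) and Hadhb (-0.68 ± 0.13).

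Glycolysis genes were called at shares near the background. Of 15 genes 2 were higher (13.3%, background 10.4% of probes), 2 lower (13.3%, background 9.17%) and 11 did not pass, with a median of 0.18. Eno2, the enolase of neurons and neuroendocrine cells, rose 8.02-fold (log2 fold change 3.00 ± 0.19, limma adjusted p = 1.70e-05), and Ldhb, the heart-type lactate dehydrogenase subunit, fell 5.82-fold (log2 fold change -2.54 ± 0.47, limma adjusted p = 0.00597). Ldhb read 2015, 3010.4 and 642 in controls, 2517, 622 and 2385 at day 30, 1297, 1599.9 and 1751 at day 60 and 292, 219 and 308 at day 90, so that control mouse 3 and day 30 mouse 2 were again low. Of 5 regulators of mitochondrial genes tested, Ppargc1b, a coactivator of mitochondrial biogenesis, read 511, 528 and 378 in controls, 454, 337 and 534 at day 30, 247, 326 and 361 at day 60 and 139.5, 139 and 153 at day 90 (log2 fold change -1.70 ± 0.15, limma adjusted p = 0.000135). Its fall left all day 90 mice under all the others. Ssbp1, which binds single-stranded mitochondrial DNA, rose (0.47 ± 0.14), and the other 3 did not pass. Of the 13 probes of mitochondrially encoded transcripts 1 was higher and none lower than control at day 90, with a median of 0.11. The background was 10.4% of probes higher and 9.17% lower. Against day 60, 2 of the 13 were lower (background 9.83%). The largest log2 fold change against control was 2.75 at day 90, and it was 2.61 at day 30 and 2.64 at day 60.

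The 11 genes with more than 1 probe allowed a check of the brightest probe. In 5 of them (Atp5md, Atp5mpl, Ndufa6, Ndufc1 and Sdhc) the other probe was at background. For Cox6a1 and Cox6b1 both probes were lower at day 90. Ndufs3 and Cox5b had 1 probe past the threshold and 1 not. Atp5k had probes of opposite sign at day 90, 0.31 and -0.25, and so had Ndufs4, at 0.05 and -0.13, with no probe of either gene past the threshold.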

How the data were processed

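RNA of 12 antra, 3 per group, was hybridized to bead arrays. The authors deposited non-normalized probe intensities and, for the same probes, normalized intensity values; the methods name vsn for the arrays and quantile normalization for the gene tests, without saying which made this table, which ranks probes as the non-normalized one does. No detection p-value or slide was given. The deposited intensities, with medians of 92.1 to 127.1 per array, were background corrected by normexp (offset 50), quantile normalized, given a floor of 32 (the smallest value was 50.8) and put on the log2 scale in limma 3.58.1 (R 4.3.3). Because of the offset, a change in a dim probe is understated. Probes above 100 on at least 3 arrays (22067) were fitted, 3 against 3 arrays per comparison, with lmFit and eBayes and Benjamini-Hochberg adjustment over all of them; the method was tested on simulated data. With 3 arrays in a group, precision is low. Reading 9832 gene numbers and 982 RIKEN clones from probe IDs is an inference. Named genes were Cox7a1, up to 8 called genes at each end at day 90, up to 5 with the smallest p elsewhere, and the gene with the smallest p of a complex without calls. Genes given at day 60 beyond Atp5md, and second probes, were chosen after their values were seen. The members and lists were chosen with earlier results of these data known. The letters searched for NRF1 were cut to the core of its motif after matches to a longer form had been seen. Other settings tried left out each array in turn or changed which probe stood for a gene, the filter, the correction for background or the scaling. Further ones used the deposited normalized values, a single fit over the 4 groups, robust or trended estimates of the spread, the replicate number as a block, and the methods' t-test. The study's filters on fold change and on the difference of means were not applied with that t-test.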

Additional observations from a re-analysis of the deposited data

Results flagged for a closer look

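The difference from control changed between ages in several genes. This was tested directly by comparing the ages, so that the controls drop out. Aging and tumor growth cannot be told apart in such a comparison. From day 60 to day 90 the number of genes that changed was 26, all of them lower, and the 5 with the smallest p had log2 fold changes of -3.00 (Cox7a1), -0.83 (Ndufa10), -0.77 (Sdhb), -0.73 (Cox6b1) and -0.69 (Ndufa9). In each of these 5 the 3 day 90 mice lay below the 3 day 60 mice. From day 30 to day 60 the number was 1, Atp5md, at 1.13 on the log2 scale, with every day 60 mouse above every day 30 mouse; that call held in 8 of 18 alternatives.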

How the results depend on the processing

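No direction reversed among the named genes. The counts of the methods' t-test rest on p alone, without the study's filters on fold change and on the difference of means. Against control at day 90, the methods' t-test with Benjamini-Hochberg adjustment gave 1 gene higher and 5 lower (21 genes at its unadjusted threshold of 0.05), and leaving out 1 mouse gave 1 to 3 higher and 7 to 24 lower, with a median from -0.38 to -0.17. Between days 60 and 90 the genes lower numbered 10 with that t-test, 11 in 1 fit of all 4 groups and 13 to 30 without 1 mouse (higher: 0 to 0; median -0.47 to -0.30), and the median was -0.49 in the deposited normalized values. Against control at day 60 the number changed was 2 with no filter or with a trended and robust spread, 0 with the t-test or the replicate block, and 0 to 2 without 1 mouse (median -0.11 to 0.05). Between days 30 and 60 it was 2 without background correction, with cyclic loess, with no filter or in 1 fit of all groups, 0 with an offset of 16, 75th percentile scaling, deposited values, a filter at 200, the t-test or the block, and 0 to 5 without 1 mouse (median -0.23 to -0.08). At day 30 it stayed at 0 to 0, with a median from -0.04 to 0.23. In a fit with the replicate block the counts against control at day 90 were within 1.5 times those without it. The mouse numbers do not pair animals: deviations of same-numbered mice correlated between -0.43 and 0.36. The cause of these changes was not tested. Cox7a1, Ndufa10, Ndufa9 and Ndufaf8 were lower at day 90 in every alternative run. A comparison of tissue-restricted with common isoforms of complex IV was not run, since no pair had a named probe for both. Genes near background, such as Ndufa3 and Ndufab1, could show no fall at this signal.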
